A study of Mus musculus with 6 samples.

Results

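The genes described here are 35 interferon-stimulated and interferon signalling genes, taken by name from a fixed list of symbols. The list was chosen with earlier results of these data known. All 35 were found among the 43430 Ensembl gene IDs of the count table, and all 35 passed the filter on low counts that left 13005 genes for testing. Expression was measured by RNA-seq in fibroblasts sorted by flow cytometry from the lungs of 9-11-week-old C57BL/6J males for PDGFRA, the receptor carried by most lung fibroblasts. Of these mice, 9 breathed room air and 9 breathed 10% CO2 (hypercapnia) for 10 days, and each library holds the pooled cells of 3 mice, so there were 3 libraries per group. The labels name no transgene or deletion, and oxygen was stated to be normal during the CO2 exposure. The room air libraries are called M1 to M3 and the hypercapnia libraries M4 to M6, and where 3 values are given for a group they follow that order.

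Interferons are secreted proteins that warn cells of infection. Type I interferons bind the receptor pair IFNAR1 and IFNAR2, whose kinases JAK1 and TYK2 activate STAT2, which joins IRF9 in a complex that switches on genes that carry an interferon response element. Interferon gamma acts through another receptor, on genes with a gamma-activated site, and IRF1 carries its signal further. The products of the induced genes block viral translation and entry, cut viral RNA, conjugate ISG15 to proteins, attack membranes around microbes, and trim peptides for MHC class I. Fibroblasts keep low levels of many of these products without infection.

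Total counts ran from 8999780 to 10198336 per library, which exceeds the average number of aligned reads per sample that the labels state. What a count stands for beside an aligned read is not given in the sources used here. Levels are given as CPM, counts scaled to a common library total, with TMM composition factors, which lay between 0.943 and 1.05, and 3 counts correspond to 0.281 to 0.353 CPM. The fibroblast markers Pdgfra and Col1a1 were abundant. Pdgfra stood at 3560 ± 208 and 2970 ± 419 CPM (SD, n = 3) in room air and hypercapnia, and Col1a1 at 5070 ± 285 and 4930 ± 478 CPM. Others of the 10 listed were scarcer, such as Lum (64.2 and 67.8 CPM) and Cyp1b1 (17.1 and 18.4 CPM). Of the 10, 5 had positive and 5 negative log2 fold changes. Tcf21 was lower in hypercapnia without overlap (-0.44 ± 0.11, edgeR adjusted p = 0.101). Markers of leukocytes, cells with a strong interferon response, were low but not all absent. Ptprc (CD45) had 2 counts in M1 and 0 in the other libraries. Lyz2, of macrophages and also of alveolar epithelium, stood at 34.6 ± 21.6 and 44.1 ± 20 CPM, and Cd14 at 8.37 ± 1.77 and 15.7 ± 1.33 CPM without overlap (log2 fold change 0.91 ± 0.24, edgeR adjusted p = 0.11). Of the same list, 4 of 15 leukocyte and macrophage markers (Adgre1, Itgax, Marco and Tyrobp) were at 0 everywhere, while the summed level of the 15 ran from 18.9 to 64.4 CPM in room air and from 40.5 to 79.5 CPM in hypercapnia. Of 10 lymphocyte markers 5 were at 0 everywhere. Of 8 markers listed for plasmacytoid dendritic cells, Siglech had 2 counts, both in M3. Others of that list were not low: Tcf4 stood at 412 ± 27.5 and 409 ± 47.3 CPM, Irf8 at 92.5 ± 12.8 and 92.6 ± 8.29 CPM. Bst2, also 1 of the 35 genes, stood at 47.4 ± 2.13 and 49.6 ± 3.47 CPM. The list summed to 523 to 568 CPM in room air and 508 to 610 CPM in hypercapnia, mostly from Tcf4. Ccr9, Klk1, Cox6a2 and Ly6c2 of the list had only 1, 3, 0 and 68 counts over all libraries together. Epithelial RNA was present: Epcam ran only from 0 to 19 counts, but Sftpc, an alveolar surfactant gene, stood at 96 ± 41.1 and 141 ± 65.3 CPM and Scgb1a1, a club cell secretory gene, at 362 ± 112 and 223 ± 88.8 CPM. Endothelial markers were present and uneven. The summed level of 18 genes was 2770, 2350 and 735 CPM in room air and 4430, 3480 and 2730 CPM in hypercapnia. Pecam1 stood at 168 ± 100 and 308 ± 81.6 CPM. All 18 had positive log2 fold changes, but 0 reached an edgeR adjusted p under 0.05 (smallest 0.0755). In such bulk samples a change in the number of cells of a type and a change of RNA per cell cannot be told apart.

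For most of the 35 interferon genes no difference between the groups was detected. By edgeR's quasi-likelihood test with Benjamini-Hochberg adjustment over all 13005 tested genes, 1 of 35 fell (Ifit2), 0 rose and 34 did not pass the threshold of 0.05. Over all tested genes 1.22% passed, 0.523% higher and 0.7% lower (68 and 91 genes, and 97 and 75 without composition factors). The median log2 fold change (hypercapnia minus room air) was 0.10 over the 35 genes and 0.01 over all tested genes. Of the 35, 22 were above 0 and 13 below, beside 6696 above and 6309 below over all tested genes. The median size of the change, whatever its sign, was 0.16 and 0.18. At an unadjusted p under 0.05 there were 5 of 35 genes, or 14.3%, beside 12% of all tested genes, and room air and hypercapnia libraries were fully separated for 6 of 35, or 17.1%, beside 18%. These shares lie near those of all genes. The 95% interval of the log2 fold change lay wholly between -1 and 1, that is within a 2-fold change either way, for 31 of 35 genes (88.6%, and 70.7% of all tested genes). The 4 whose intervals were wider were the scarce transcripts Rsad2, Oas1a, Ifi44 and Isg15.

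**Figure D1:**
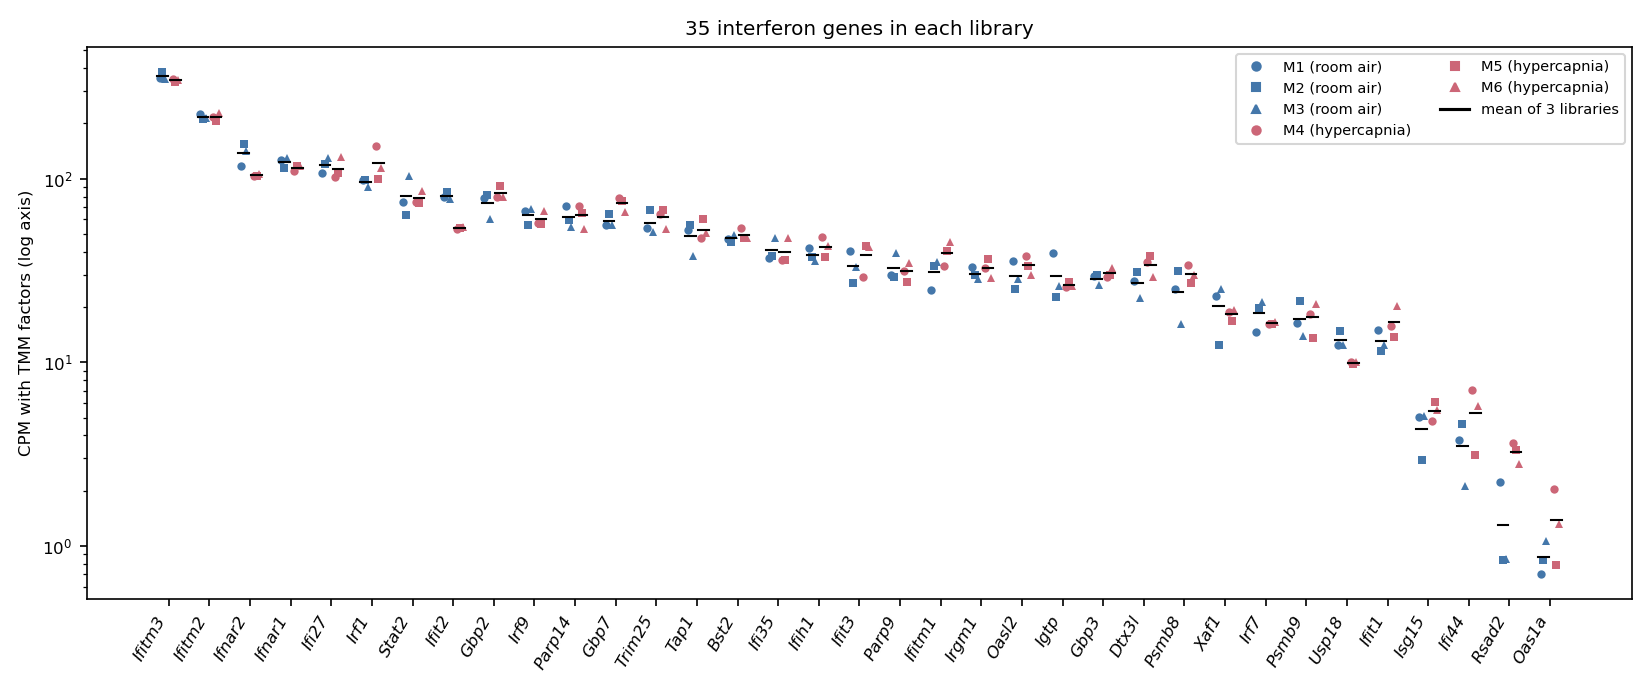
CPM with TMM factors on a log axis for the 35 interferon genes, ordered by their mean in room air, in the 3 room air (blue) and 3 hypercapnia (red) libraries, with black bars for the group means. The genes span levels from Ifitm3 at 361 to Oas1a at 0.868 CPM in room air, and at most positions the libraries of the groups are intermixed, while for Ifit2 the hypercapnia libraries all lie below those of room air.

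Compared per kilobase of exon in room air, the most abundant were the membrane proteins that block virus entry, Ifitm3 (532 CPM per kb) and Ifitm2 (331), followed by the mitochondrial protein gene Ifi27 (81.2), the virus tether Bst2 (52.5) and the receptor subunit Ifnar2 (41.4). At the other end stood Rsad2 (0.302), Oas1a (0.461) and Ifi44 (0.571), genes known for strong induction by interferon. Isg15, one of the most abundant products of a full interferon response, stood at only 5.77 CPM per kb in room air and 7.23 in hypercapnia. The order in hypercapnia was led by the same 4 genes, at 509, 332, 77.5 and 54.9 CPM per kb, with Ifitm1 next at 36.3.

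**Figure D2:**
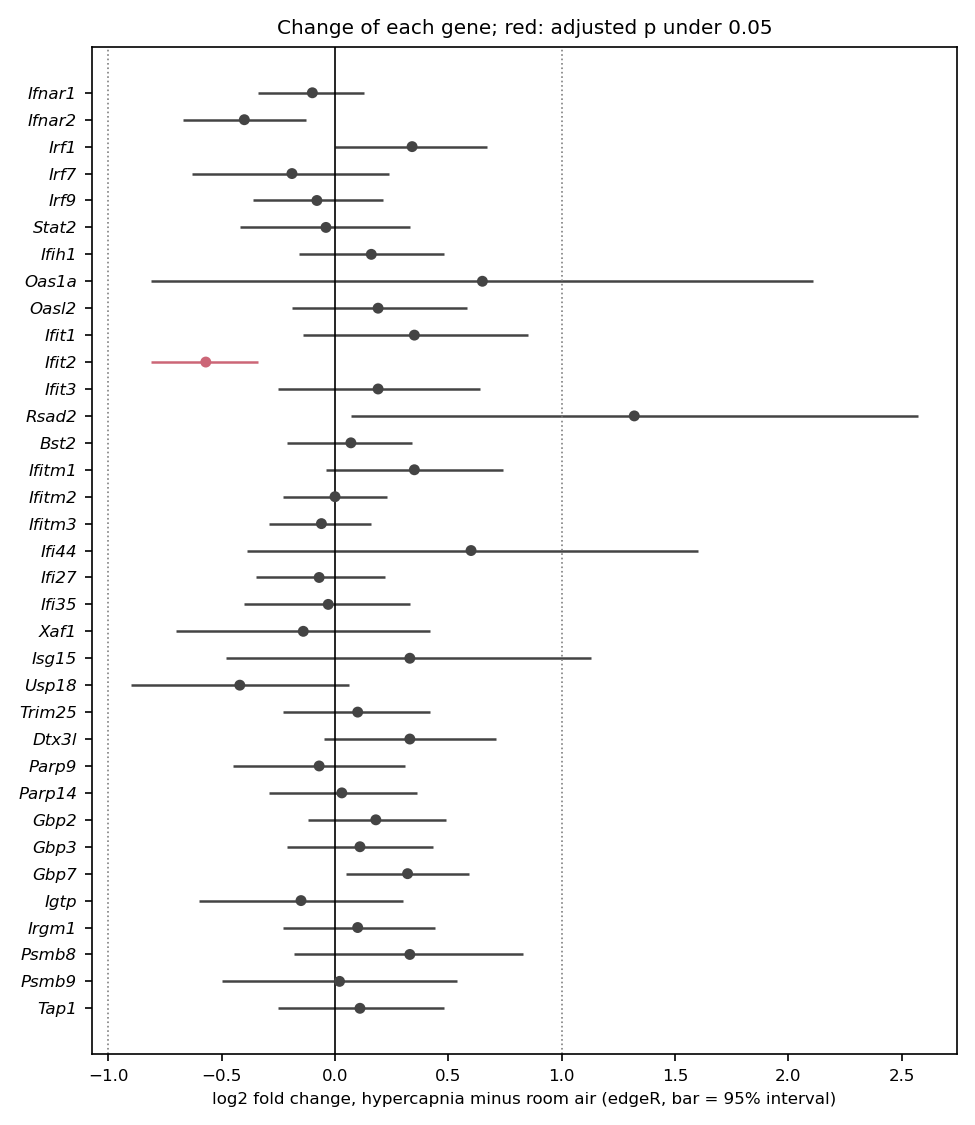
Log2 fold change of each of the 35 genes, hypercapnia minus room air, from edgeR, with bars for the 95% interval and dotted lines at -1 and 1. The interval of Ifit2, in red, runs from -0.81 to -0.34, and the widest are those of Oas1a (-0.81 to 2.11) and Rsad2 (0.07 to 2.57).

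The type I receptor was present in every library. Ifnar2, the subunit with the higher affinity for interferon, lies on chromosome 16 from 91372783 to 91405589 (mm10). Its level was 117, 155 and 142 CPM in room air and 104, 104 and 106 CPM in hypercapnia, so the hypercapnia libraries were lower and close to each other. The log2 fold change was -0.40 ± 0.12 (SE), and edgeR's adjusted p of 0.18 did not pass. Of its exonic bases 9.46% also belong to the readthrough model Gm21970 on the same strand. Ifnar1, the partner subunit from 91485238 to 91507441 of the same chromosome, stood at 123 ± 7.4 and 115 ± 4.55 CPM (-0.10 ± 0.11). The ratio of Ifnar2 to Ifnar1 counts in a library overlapped between the groups (0.929, 1.35 and 1.1 in room air, 0.949, 0.885 and 0.902 in hypercapnia).

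Transcription factors of the response did not pass the test. Irf1, a target of interferon gamma that induces antigen processing genes, was 98.7, 98.7 and 90.6 CPM in room air and 151, 99.4 and 114 CPM in hypercapnia. M4 and M6 stood above the room air libraries, and M5 exceeded the highest of them by less than 1 CPM. The log2 fold change of Irf1 was 0.34 ± 0.15 with an edgeR adjusted p of 0.407. Stat2 and Irf9, both parts of the complex ISGF3, had log2 fold changes of -0.04 ± 0.17 and -0.08 ± 0.13. Stat2 differed more among room air libraries (63.5 CPM in M2, 103 in M3) than between the group means (80.6 and 78.2 CPM). Irf7, which amplifies type I interferon production, stood at 18.6 ± 3.47 and 16.3 ± 0.247 CPM (-0.19 ± 0.20).

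The sensors among the 35 genes had positive log2 fold changes, each about the size of its SE, and none passed. Ifih1 (MDA5), a sensor of long double-stranded RNA, stood at 38.4 ± 3.32 and 42.8 ± 5.18 CPM (0.16 ± 0.15). Oasl2, an oligoadenylate synthetase-like protein, stood at 29.6 ± 5.42 and 33.9 ± 4.14 CPM (0.19 ± 0.17). Oas1a, an activator of RNase L, had only 6, 8 and 10 counts in room air and 18, 8 and 14 in hypercapnia. No difference of Oas1a was detected, and its interval was wide (log2 fold change 0.65 ± 0.66, 95% interval -0.81 to 2.11). In addition, 57.6% of the 50-base stretches of Oas1a transcripts also occur in Oas1b or Oas1g, so its counts are uncertain.

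Among the antiviral effectors the clearest difference was that of Ifit2, which encodes a protein that binds viral RNA and restrains translation. Ifit2 (ENSMUSG00000045932) lies on chromosome 19 from 34550694 to 34576419, shares no exonic base with another gene model and none of its 50-base stretches with another gene. It was at 79.1, 84.2 and 77.3 CPM in room air and at 53.1, 54.0 and 54.6 CPM in hypercapnia. The libraries within each group lay close together and the groups were well apart. Ifit2 fell by 0.57 ± 0.11 (SE) on the log2 scale, from 80.2 ± 3.58 to 53.9 ± 0.765 CPM (SD, n = 3), with an adjusted p of 0.0355 by edgeR's quasi-likelihood test. Its log2 fold change ran from -0.60 to -0.51 over the alternatives, but the call was lost when any 1 library was left out (adjusted p of 0.0746 without M1, 0.185 without M2, 0.0569 without M3, 0.0806 without M4, 0.172 without M5 and 0.112 without M6), without composition factors (0.058) and with endothelial marker RNA as a covariate (0.0596), within a range of 0.0037 to 0.185 over all alternatives.

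Its neighbours in the same cluster on chromosome 19 did not pass. Ifit3 (34583531 to 34588731), a binding partner of IFIT1, was 40.5, 27 and 33 CPM in room air and 29, 43.1 and 42.6 CPM in hypercapnia, which overlap (0.19 ± 0.20). Ifit1 (34640871 to 34650009), which binds the cap of viral RNA, was 15.1, 11.5 and 12.5 CPM in room air and 15.8, 13.8 and 20.3 CPM in hypercapnia (0.35 ± 0.22, adjusted p = 0.6). Ratios of raw counts within a library need no composition factor. The ratio of Ifit2 to Ifit3 was 1.95, 3.12 and 2.34 in room air and 1.83, 1.25 and 1.28 in hypercapnia, and that of Ifit2 to Ifit1 was 5.25, 7.3 and 6.19 against 3.36, 3.93 and 2.69. Neither overlapped between the groups, with log2 differences of -0.76 and -0.91, while Ifit1 to Ifit3 overlapped (0.15). The exact two-sided permutation p was 0.1 for the first 2 ratios, the smallest that 3 against 3 libraries can give, and 0.35 after adjustment over 7 ratios, which were chosen after the values were seen. The counts of Ifit3 carry an uncertainty, since 51.2% of its 50-base stretches also occur in Ifit3b.

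**Figure D3:**
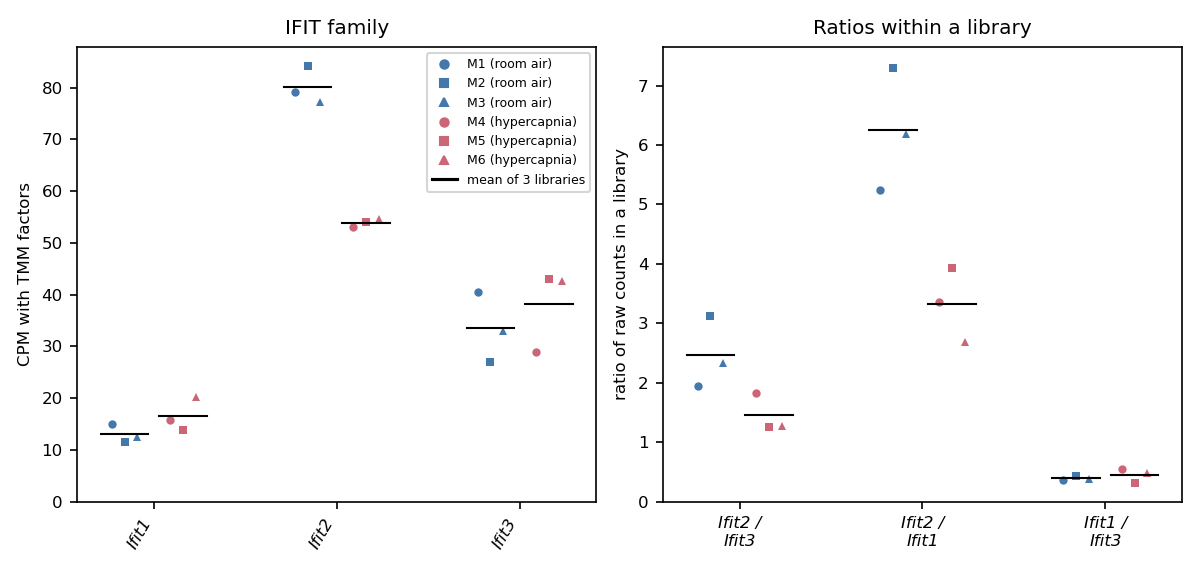
Left, CPM with TMM factors of Ifit1, Ifit2 and Ifit3 in each library, with black bars for group means, and right, ratios of their raw counts within a library. Ifit2 is at 77.3 to 84.2 CPM in the room air libraries and at 53.1 to 54.6 CPM in hypercapnia, while Ifit1 and Ifit3 overlap between the groups.

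Rsad2 (viperin), an enzyme that makes a chain-terminating nucleotide, was scarce, with 19, 8 and 8 counts in room air and 32, 34 and 30 in hypercapnia. These are 2.24, 0.839 and 0.847 CPM against 3.64, 3.34 and 2.81 CPM, without overlap. Its log2 fold change was 1.32 ± 0.57 and edgeR's adjusted p 0.378. Endothelial marker RNA was on average also higher in hypercapnia, with overlap (735 to 2770 CPM against 2730 to 4430 CPM), and 0 of the 18 markers passed. With the mean log2 CPM of these markers as a covariate the log2 fold change of Rsad2 was 0.77 (adjusted p = 0.697 by edgeR). The adjusted p ran from 0.243 to 0.701 over the alternatives. The part of endothelial RNA in the difference was not tested beyond these values.

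The entry-blocking IFITM genes lie together on chromosome 7, and Ifitm3 and Ifitm2 were the most abundant of the 35. Ifitm3 stood at 361 ± 17.4 and 345 ± 6.46 CPM, a log2 fold change of -0.06 ± 0.10 with a 95% interval of -0.29 to 0.16. Ifitm2 stood at 217 ± 7.12 and 217 ± 10.6 CPM (0.00 ± 0.10), although 40.9% of its exonic bases belong also to Gm45717 and 48.5% of its 50-base stretches occur in other genes. The third, Ifitm1 (5.02% of 50-base stretches shared), was 24.8, 33.6 and 35.1 CPM in room air and 33.4, 40.4 and 45.2 CPM in hypercapnia. M1 was the lowest and the groups overlapped (0.35 ± 0.18, edgeR adjusted p = 0.484). The Ifitm3 to Ifitm2 count ratio was 1.67 ± 0.124 in room air and 1.59 ± 0.0626 in hypercapnia.

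The remaining effectors gave values close to 0 or wide intervals. Bst2 (tetherin), which holds budding virus at the cell surface, had a log2 fold change of 0.07 ± 0.12. Ifi27 stood at 119 ± 10.8 and 114 ± 15.2 CPM (-0.07 ± 0.13) and Ifi35, a partner of the protein NMI, at 40.8 ± 5.93 and 39.9 ± 6.5 CPM (-0.03 ± 0.16), with 16.8% of its exonic bases overlapped on the other strand by Gm11626. Xaf1, an antagonist of the apoptosis inhibitor XIAP, had -0.14 ± 0.25. Its room air libraries spread from 12.4 CPM in M2 to 25.2 in M3, wider than the hypercapnia libraries (16.7 to 19.3). Ifi44 had 32, 44 and 20 counts in room air and 62, 32 and 62 in hypercapnia (0.60 ± 0.45).

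ISG15 is a ubiquitin-like protein that is conjugated to other proteins, and USP18 removes it and dampens signalling at IFNAR2. Isg15 was 5.06, 2.94 and 5.08 CPM in room air and 4.78, 6.09 and 5.52 CPM in hypercapnia, which overlap (0.33 ± 0.36). Usp18 was 12.5, 14.9 and 12.5 CPM in room air and 10.0, 9.83 and 10.0 CPM in hypercapnia. The groups did not overlap for Usp18 and the log2 fold change was -0.42 ± 0.22, but edgeR's adjusted p of 0.494 did not pass. Trim25, a ubiquitin ligase that activates RIG-I, had 0.10 ± 0.15.

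Dtx3l, a ubiquitin ligase, and Parp9, its inactive-ADP-ribosyltransferase partner, lie head to head on chromosome 16 and share 8% and 9.4% of their exonic bases on opposite strands. Counts in that stretch cannot be assigned to either gene without the strand setting. Dtx3l was 27.9, 30.9 and 22.5 CPM in room air and 35.4, 37.8 and 29.1 CPM in hypercapnia, where M6 lay below M2 (0.33 ± 0.17, adjusted p = 0.501 by edgeR). Parp9 was 30, 29.1 and 39.4 CPM against 31.6, 27.5 and 34.7 CPM (-0.07 ± 0.17), and the ratio of the pair overlapped between the groups (0.57 to 1.06 and 0.838 to 1.38). Parp14, an ADP-ribosyltransferase in the same region, stood at 61.7 ± 8.43 and 63.2 ± 9.1 CPM.

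Guanylate-binding proteins (GBP) and immunity-related GTPases (IRG) are large GTPases that coat and rupture vacuoles holding microbes. Of the 5 among the 35 genes, 4 had positive log2 fold changes and none passed. Gbp7, on chromosome 3 from 142530342 to 142550149, was 55.9, 64.5 and 56.1 CPM in room air and 78.6, 76.1 and 66.1 CPM in hypercapnia. All 3 hypercapnia libraries were higher, M6 only by a small margin over M2. Of its 50-base stretches 12.7% occur in other genes and 11.3% of its exonic bases belong also to Gm43802. The log2 fold change was 0.32 ± 0.12 with an adjusted p of 0.299 by edgeR. Gbp2 (0.18 ± 0.14) and Gbp3 (0.11 ± 0.14) of the same cluster, Irgm1 (0.10 ± 0.15) and Igtp (Irgm3, -0.15 ± 0.21) overlapped between groups. Igtp was highest in M1 (39.3 CPM) and lay between 22.7 and 27.3 CPM in the other 5 libraries, shares 11.8% of its 50-base stretches with Irgm2, and without M1 its log2 fold change was 0.11.

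Of the 12 other GTPases of this kind found in the table, from 15 listed, 7 were tested and 0 passed, although 2 were close to the threshold. Gbp4 was 13.5, 9.02 and 8.26 CPM in room air and 22.2, 23.8 and 19.9 CPM in hypercapnia, well apart. The difference of 1.10 ± 0.23 on the log2 scale had an adjusted p of 0.0507 by edgeR and 0.00246 by DESeq2, with a range of 0.000594 to 0.246 over the alternatives. Gbp2b (Gbp1) was 9.3, 4.41 and 8.79 CPM against 19.1, 17.2 and 16.7 CPM (1.24 ± 0.29, adjusted p = 0.0778 by edgeR, 0.00423 by DESeq2, range 0.000592 to 0.236). Gbp9 stood at 14 ± 5.31 and 20 ± 2.97 CPM (0.51 ± 0.28). With endothelial marker RNA as a covariate the log2 fold changes of Gbp4, Gbp2b and Gbp7 were 0.80, 1.34 and 0.23, with adjusted p of 0.187, 0.114 and 0.529. Without M3, the library with the least endothelial marker RNA, they were 0.96, 1.37 and 0.29. The part of endothelial RNA in these differences was not tested beyond these values.

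**Figure D4:**
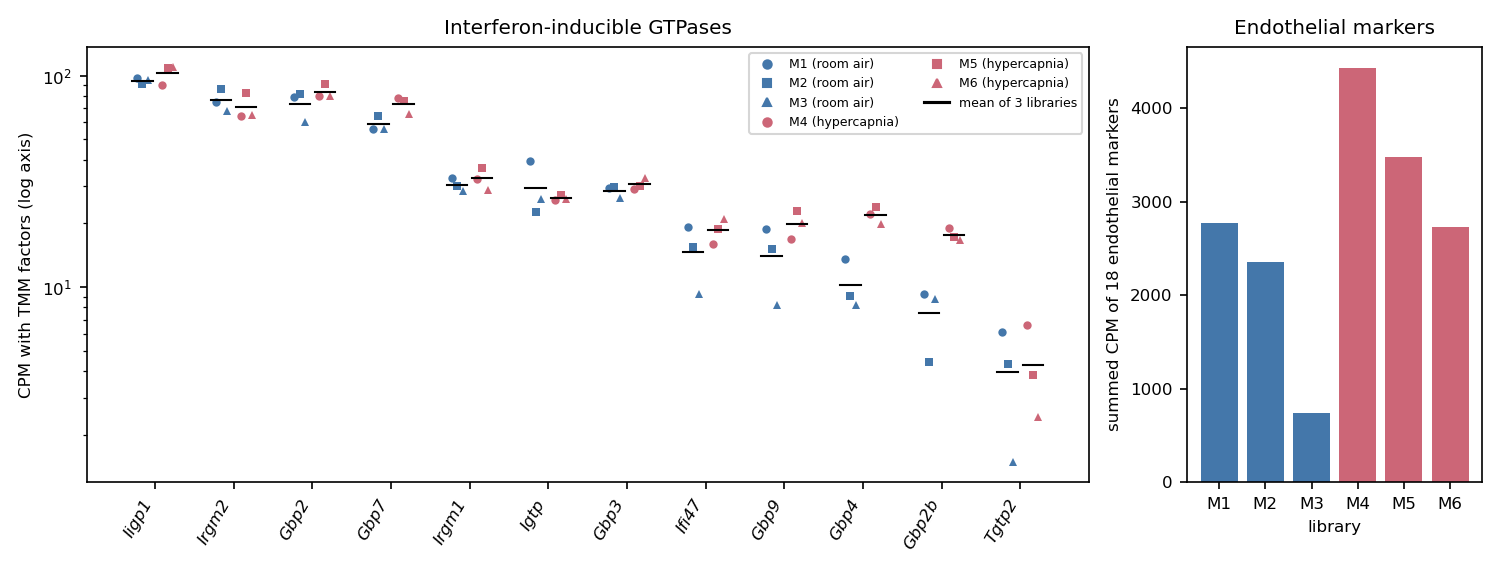
Left, CPM with TMM factors (log axis) of the 12 tested interferon-inducible GTPases in each library, with black bars for group means, and right, the summed CPM of 18 endothelial markers per library. The hypercapnia libraries of Gbp4 (19.9 to 23.8 CPM) and Gbp2b (16.7 to 19.1) lie above all room air libraries, and the endothelial sum runs from 735 CPM in M3 to 4430 in M4.

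Antigen processing genes in the MHC region of chromosome 17 varied more within room air than between the groups. Psmb8 and Psmb9 encode catalytic subunits of the immunoproteasome, and Tap1 a subunit of the peptide transporter. Their summed level was 93.9, 109 and 68 CPM in room air and 99.9, 101 and 101 CPM in hypercapnia, with M3 the lowest for Psmb8 (16.1 CPM) and Tap1 (37.9 CPM). The log2 fold changes were 0.33 ± 0.23, 0.02 ± 0.23 and 0.11 ± 0.17 for Psmb8, Psmb9 and Tap1. Psmb9 and Tap1 overlap head to head over 5.79% and 3.87% of their exonic bases. Of 18 other genes of MHC class I and its loading, all tested, 0 passed. B2m, the invariant light chain, stood at 674 ± 122 and 658 ± 54.5 CPM (-0.03 ± 0.14). Nlrc5, the transactivator of MHC class I genes, had 27, 23 and 26 counts in room air and 51, 99 and 66 in hypercapnia (1.38 ± 0.37, edgeR adjusted p = 0.124, 0.0385 by DESeq2, range 0.0382 to 0.507). Psme3 had -0.24 ± 0.12 and the chaperone Calr -0.22 ± 0.13.

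Starting points of the pathway were examined in the same fit. None of the 21 listed interferon genes had a count in any library, Ifnb1, Ifng and the listed interferon alpha genes among them, which allows up to 0.281 to 0.353 CPM in a library for counting error alone. Of 25 genes of nucleic acid sensing 22 were tested and 0 passed. The DNA sensor gene Cgas had 7, 1 and 3 counts in room air and 21, 31 and 23 in hypercapnia, without overlap (2.60 ± 0.74, adjusted p = 0.15 by edgeR and 0.0491 by DESeq2, range 0.0491 to 0.481). Rnaseh2b, a subunit of an enzyme that removes RNA from DNA, had 0.53 ± 0.24, and the kinase gene Irak4 0.34 ± 0.17.

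Of 24 receptors, kinases, STATs and regulators 22 were tested and 0 passed, with 17 negative and 5 positive log2 fold changes. Over all tested genes 6309 were negative and 6696 positive. Ifngr1, the ligand-binding chain of the interferon gamma receptor, was 598, 643 and 716 CPM in room air and 516, 474 and 509 CPM in hypercapnia. All hypercapnia libraries were below those of room air (-0.38 ± 0.11, adjusted p = 0.15 by edgeR, 0.0318 by DESeq2, range 0.0318 to 0.478). Its partner Ifngr2 had -0.20 ± 0.12, with overlap. The kinases Jak1 (-0.07 ± 0.13) and Tyk2 (-0.01 ± 0.13) had values near 0. Irf3, the first factor activated by the sensors, had 0.28 ± 0.13, and the corepressor Irf2bp2 -0.32 ± 0.14.

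Other interferon-stimulated effectors numbered 79, of which 69 were tested and 0 passed. Their log2 fold changes had a median of 0.14, with 47 positive and 22 negative, beside 6696 and 6309 over all tested genes. Ifi27l2a, a relative of Ifi27, was 29.7, 38.8 and 42.3 CPM in room air and 19, 16.4 and 29.3 CPM in hypercapnia, where M6 lay just below M1 (-0.77 ± 0.23, adjusted p = 0.166 by edgeR, 0.0398 by DESeq2, range 0.00287 to 0.5). Sp100, a nuclear body protein, had 0.40 ± 0.13 without overlap. Tnfsf10 (TRAIL), a death ligand, was 71.6, 74.2 and 20.9 CPM against 114, 116 and 94.7 CPM (0.96 ± 0.35, edgeR adjusted p = 0.277, range 3.97e-09 without a filter to 0.798). Tnfsf10 and the endothelial sum were both lowest in M3, and with the endothelial covariate the log2 fold change of Tnfsf10 was 0.12. The endothelial sum was on average also higher in hypercapnia, though 0 of the 18 markers passed. The part of endothelial RNA in the difference of Tnfsf10 was not tested beyond the fit with the covariate. Mx1, whose allele in C57BL/6 mice is known to be defective, had 13, 43 and 48 counts in room air and 4, 19 and 37 in hypercapnia (-0.93 ± 0.70).

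Over all 187 other pathway genes found in the table, 145 were tested, 0 passed by edgeR after adjustment and the median log2 fold change was 0.03. Of the 145, 15 had an unadjusted edgeR p under 0.05, beside 12% of all tested genes. Room air and hypercapnia libraries did not overlap for 20 of the 145, beside 18% of all tested genes. Of the 8 genes of MHC class II, induced by interferon gamma in many cells, H2-Oa had no count in any library. Some others varied widely among libraries of a group: Cd74 was 65.2, 58.2 and 2.54 CPM in room air and 21.2, 36.7 and 16.7 CPM in hypercapnia, and H2-Ab1 and H2-Aa were likewise lowest in M3 (4.45 and 2.44 CPM). Of the 7 tested, 0 passed, but without M3 Cd74 was called lower (-1.31, edgeR adjusted p = 0.0398). Over all alternative fits the log2 fold change of Cd74 ran from -2.40 to 0.18, with adjusted p from 0.00231 to 0.966. That of H2-Aa ran from -1.52 to 0.34, with adjusted p from 0.0481 to 0.987 over the same fits. With 1 library left out the edgeR adjusted p of H2-Aa was 0.0953 or more.

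**Figure D5:**
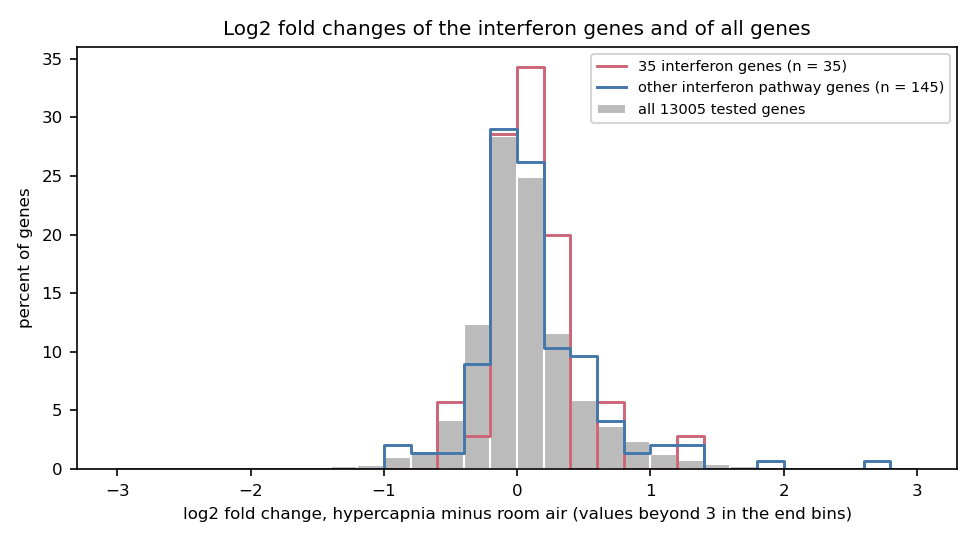
Share of genes (percent) by log2 fold change, hypercapnia minus room air, in bins of 0.2, for all 13005 tested genes (grey bars), the 35 interferon genes (red line) and 145 tested other genes of the interferon pathway (blue line). The 3 distributions are centred near 0, with medians of 0.01, 0.10 and 0.03.

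Promoter sequences show which of the 35 genes carry the textbook elements close to their start. RefSeq promoters (GRCm38.p6, the assembly of mm10) spanning 250 bases before to 50 after the start were matched by symbol for 31 of the 35 genes, all but Ifi27, Usp18, Parp9 and Parp14. The interferon response element was searched on both strands as TTTCNNTTTC and the gamma-activated site as TTCNNNGAA, which reads the same on both strands. The first was found in 15 of 31 genes (48.4%) and the second in 11 of 31 (35.5%), beside 3.99% and 9.55% of 27025 genes with a promoter. Counted by promoter, 42.9% and 31.4% of 35 held them, beside 3.44% and 8.3% of all 32851. A match is a string of letters and was not tested for binding.

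The stretches around the matches are shown for the 6 genes with the smallest p that hold a match before the start, on the strand of the gene, with the matches in capitals. Of the 2 RefSeq promoters of Ifit2, 1 holds a gamma-activated site and neither holds a response element in this form. The promoter of Ifit1 holds 2 response elements, as does that of Ifit3.
Ifit2, chr19:34550444-34550486, plus strand: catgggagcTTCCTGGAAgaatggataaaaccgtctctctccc
Ifit1, chr19:34640760-34640838, plus strand: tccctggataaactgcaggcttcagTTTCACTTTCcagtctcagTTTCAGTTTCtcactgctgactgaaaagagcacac
Ifnar2, chr16:91372544-91372602, plus strand: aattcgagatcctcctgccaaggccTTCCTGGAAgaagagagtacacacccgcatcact
Irf1, chr11:53769899-53769957, plus strand: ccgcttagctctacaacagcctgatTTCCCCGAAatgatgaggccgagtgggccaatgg
Rsad2, chr12:26456538-26456597, minus strand: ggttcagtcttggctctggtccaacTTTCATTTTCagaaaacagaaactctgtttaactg
Gbp7, chr3:142530205-142530317, plus strand: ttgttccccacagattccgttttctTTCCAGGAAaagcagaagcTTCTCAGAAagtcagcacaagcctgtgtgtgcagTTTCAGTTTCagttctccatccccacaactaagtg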

How the data were processed

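The authors deposited raw read counts per Ensembl gene for 6 libraries, as whole numbers. The submitters' processing notes name mm10, HTSeq, TopHat2 2.1.0, FastQC and bcl2fastq 2.17.1.14, with no roles. The sources used here give no annotation release, strand setting, read length or read filter. Columns name the group but match no sample title, so each was assigned to its group only, and no other columns were present. Symbols and positions came from GENCODE M21, which named 42462 of 43430 IDs. IDs without a symbol held at most 0.123% of a library's counts.

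Tests used edgeR 4.0.16 (R 4.3.3): filterByExpr with a minimum count of 10, TMM factors, group as the only term, 4 residual degrees of freedom, two-sided quasi-likelihood F-test, adjusted p under 0.05. The SE is the log2 fold change divided by the root of F. Scripts were tested on simulated data. Between any pair of libraries chi-square divided by its degrees of freedom was 12.6 or more, so none repeats another. Uniqueness was measured as the share of 50-base stretches of a gene's transcripts found in another gene. The genes and lists were chosen with earlier results of these data known. The rule for names covers all 35 genes, with every library's value for the 8 of smallest p. From each other pathway list it takes the 3 of smallest p and any past the threshold, and it adds Jak1, Tyk2, Ifngr1, Ifngr2, B2m, Mx1 and 5 sort markers. A further gene of the rule is not reported here. Alternatives were RLE or no factors, no filter or a minimum count of 30, robust dispersion, DESeq2 1.42.0 and limma-voom (limma 3.58.1). Others were an endothelial covariate, which was the mean log2 CPM of the 18 endothelial markers, and each library left out.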

Additional observations from a re-analysis of the deposited data

How the results depend on the processing

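No paired analysis was possible because the columns carry no replicate number shared between the groups. Over the alternatives, 488 values of the 35 genes were recomputed: 449 kept direction and call, 8 lost the call (all Ifit2), 31 turned in sign in 15 genes and none gained a call. Signs were read after rounding to 2 decimals, so Ifitm2, at 0.00 (-0.03 to 0.07 over the alternatives), has none and is not counted. The count of interferon genes called, 1, was 0 without composition factors, with the endothelial covariate and without any 1 library (0 to 0). Their median log2 fold change of 0.10 was 0.16 without composition factors, where that over all tested genes also moved, from 0.01 to 0.07. The median of the 35 genes was 0.04 with the endothelial covariate and 0.04 to 0.13 with 1 library left out. The count over all genes, 159, was 756 without a filter, 435 by DESeq2, 255 with robust dispersion and 24 to 148 with 1 library left out, lowest without M2 (24), M5 (27) and M6 (42), where fewer samples were fitted. None of the values below that turned in sign passed the threshold. Without composition factors the log2 fold changes were 0.01 for Stat2, 0.03 for Ifi35, B2m and Col1a1 and 0.06 for Tyk2. By limma-voom they were 0.18 for Cd74 and 0.34 for H2-Aa. With the endothelial covariate they were 0.02 for Irf7, 0.03 for Irf9, 0.31 for Stat2, 0.10 for Ifi27, 0.24 for Ifi35, 0.11 for Xaf1, 0.20 for Parp9, -0.06 for Trim25, -0.20 for Parp14, -0.04 for Gbp2, -0.02 for Irgm1, -0.09 for Psmb8, -0.14 for Psmb9 and Tap1, -0.55 for H2-Ab1 and -0.16 for Pecam1. With 1 library left out, ranges that crossed 0 were -0.31 to 0.11 for Igtp, -0.13 to 0.21 for Psmb9, -0.19 to 0.17 for Stat2, -0.18 to 0.09 for Ifi35, -0.40 to 0.05 for Xaf1, -0.15 to 0.08 for Parp9, -0.06 to 0.14 for Parp14, -0.04 to 0.22 for Tap1, -0.82 to 0.19 for H2-Aa, -0.18 to 0.02 for Jak1, -0.06 to 0.03 for Tyk2, -0.17 to 0.09 for B2m and -0.12 to 0.02 for Col1a1. Pecam1 is itself 1 of the markers averaged in the endothelial covariate, so its turn in that fit carries no information. The cause of the other turns was not tested. Depth limits what can be said of Rsad2, Oas1a, Ifi44, Isg15, Cgas and Mx1, which had few counts.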

Other observations

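The libraries did not share the extremes of the 35 genes evenly. M4 was the highest library for 10 of 35 genes (28.6%, where it was highest for 16.2% of all tested genes) and M1 for 1 (2.86%, beside 16.2%). M2 and M3 were each the lowest for 10 genes (28.6%, beside 16.7% and 18.8% of all tested genes), and M6 for 1 (2.86%, beside 15.1%). The mean log2 CPM over the 35 genes was 5.10, 5.03 and 5.01 in the room air libraries and 5.19, 5.10 and 5.18 in hypercapnia, a spread that is small beside that of the endothelial markers in the same libraries (6.64, 6.37 and 4.83, and 7.32, 7.05 and 6.67). Among markers of other cells, the summed level in room air and hypercapnia ran from 155 to 332 and 252 to 382 CPM for 11 alveolar epithelial genes, 334 to 565 and 150 to 424 CPM for 8 airway genes, 228 to 275 and 129 to 210 CPM for 6 mesothelial genes, and 449 to 496 and 382 to 417 CPM for 10 pericyte and smooth muscle genes. The mesothelial sum was mostly Upk1b, which fell from 226 ± 28.7 to 137 ± 15.4 CPM (SD, n = 3, edgeR adjusted p = 0.0317), while Msln, Upk3b, Lrrn4 and Krt19 had positive log2 fold changes of 0.65, 0.90, 1.01 and 0.97 that did not pass, and Wt1, not tested, stood at 0.68 ± 0.304 and 2.97 ± 1.99 CPM.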
